A study of Oryctolagus cuniculus with 16 samples.

Results

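The genes described here were the metalloproteinases of the ADAM, ADAMTS and MMP families, with the ADAMTS-like (ADAMTSL) proteins that share their ancillary domains. They were selected by name, as every gene symbol in the count matrix beginning with ADAM and a digit, with ADAMTS, or with MMP and a digit. The families themselves were chosen with earlier results of these data known. Of 13788 symbols, 62 matched, and 52 of these had a count in at least 1 library, against 11925 symbols with a count in all. They comprised 15 ADAM, 18 ADAMTS, 3 ADAMTSL and 16 MMP genes.

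ADAMs are mostly membrane-anchored proteases that cut the ectodomains off cell-surface proteins such as growth factor precursors and Notch, whereas ADAMTS enzymes are secreted and cut proteoglycans, procollagens and other matrix proteins. MMPs degrade collagen, gelatin, elastin and further matrix components, ADAMTSL proteins lack the protease domain and sit in the matrix, and TIMPs inhibit many enzymes of these families. In arteries these proteins take part in matrix turnover during flow-induced remodeling and in the loss of medial matrix.

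RNA-seq was performed on intima and media that had been cut apart by laser microdissection from the straight basilar artery (BA) and from its terminal bifurcation, the basilar terminus (BT), of 4 female New Zealand white rabbits. Rabbits 3 and 4 had sham surgery and normal flow, and rabbits 5 and 6 had both common carotid arteries ligated, which raises flow through the BA. All tissue was taken 24 h after surgery, and tissue of about 10 sections was combined in each of the 16 libraries. Each group of location, layer and flow therefore held 2 rabbits, and the 4 libraries of a rabbit were not independent of each other. The ages of the rabbits were not given in the sources used here.

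Counts on named genes ranged from 2154863 to 17686105 per library. The endothelial markers PECAM1, VWF, CDH5, TEK and KDR summed to 746 to 3196 CPM (counts scaled to a common library total) in the intimal libraries and to 35.8 to 797 CPM in the medial libraries, so that 1 medial library overlapped the intimal range. Smooth muscle markers summed to 10550 to 74140 CPM in the intimal libraries and 66980 to 117800 CPM in the medial libraries, so the intimal libraries also held smooth muscle RNA. CPM were scaled by TMM over the 16 libraries, are given below in the order of rabbits 3 and 4 for sham and 5 and 6 for ligated tissue, and are compared only within a gene because they were not divided by transcript length. In whole tissue, fewer cells of a type and less RNA per cell cannot be told apart.

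The members together held 209887 counts, of which ADAMTS1 held 43.5% and ADAM9 17.5%. ADAMTS4, ADAM15, MMP2 and ADAM10 followed with 9999, 9137, 8897 and 8886 counts, then ADAMTS9, ADAMTSL3, ADAMTS15 and ADAMTS6 with 6003, 5111, 4880 and 3390. A count was present in all 16 libraries for 17 members (32.7%), compared with 51.1% of all symbols with a count, and in 4 or fewer libraries for 16 members (30.8%, compared with 17.6%). The ADAMTS family was the most widely detected, with 9 of 18 genes in every library, whereas 3 of 16 MMP genes were. By library, 26 to 38 members had a count. The plot of levels by library sets out this division between a few genes present throughout and many near 0.

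**Figure D1:**
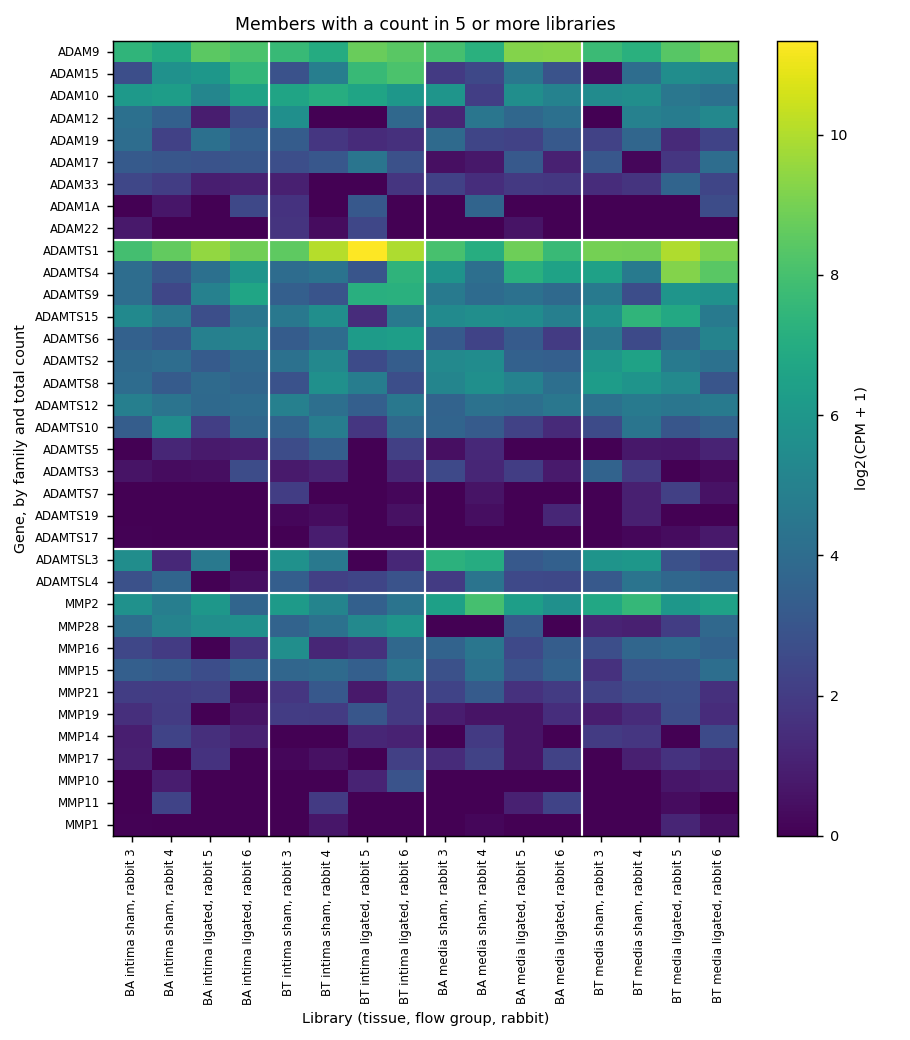
Level of the 36 members with a count in 5 or more libraries, as log2(CPM + 1), with 1 column per library and genes ordered by family and total count. White lines separate the families and the 4 tissues. ADAMTS1 and ADAM9 do not fall below 134 and 117 CPM in any of the 16 columns, while most MMP genes lie near 0.

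The effect of raised flow was examined by comparing ligated with sham tissue separately in each layer and location, by the quasi-likelihood F test of edgeR, with a false discovery rate (q-value) below 0.05 over all genes tested as the threshold. At this threshold ADAMTSL3 fell in the media of both locations, and ADAMTS4 rose in the media at the BT. In the media 1 of 30 members passed at the BA, where 0.807% of all genes did (0.375% downward), and 2 of 31 at the BT, where 2.32% did (1.14% upward and 1.18% downward). No member passed in the intima, with 30 tested at the BA and 38 at the BT, and neither did any other gene there (0.0%). Without adjustment, a p-value under 0.05 was reached at the BA by 4 of 30 intimal members (5.91% of all genes) and 6 of 30 medial members (13.6%), and at the BT by 9 of 38 intimal members (11.6%) and 11 of 31 medial members (16.0%). DESeq2 passed 0 intimal members at the BA and 4 at the BT, which were ADAM15, ADAMTS6, ADAMTS9 and ADAMTSL3.

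The median log2 fold change of the tested members at the BA was -0.20 for the intima and -0.27 for the media, beside -0.10 and -0.14 for all genes tested. At the BT it was -0.54 for the intima and 0.83 for the media, beside -0.13 and 0.03. With members at 3 counts or fewer throughout a flow group set to 3 counts in that group, these medians were -0.20 and -0.26 for the BA tissues and -0.54 and 0.83 for those of the BT. By family, the genes with a positive fold change in BA intima were 5 of 9 ADAM, 6 of 10 ADAMTS, 0 of 2 ADAMTSL and 2 of 9 MMP genes, beside 45.6% of all genes. For BT intima they were 6 of 10, 4 of 13, 0 of 3 and 7 of 12 (45.0% of all genes), for BA media 5 of 8, 3 of 10, 0 of 2 and 3 of 10 (45.1%), and for BT media 6 of 8, 6 of 11, 1 of 3 and 6 of 9 (50.8%). Flow groups did not overlap, with ligated higher, for 7 members in BA intima (15.4% of all genes), 7 in BT intima (20.4%), 5 in BA media (21.0%) and 11 in BT media (25.4%). With ligated lower they did not overlap for 8 members in BA intima (20.0%), 6 in BT intima (25.6%), 7 in BA media (26.0%) and 6 in BT media (23.1%). Of the 28 members tested in all 4 tissues, ADAM9 and ADAM15 were higher in ligated tissue without overlap in every tissue, which 3.68% of all such genes were, and ADAMTS2 was lower without overlap in every tissue, which 3.11% were. The plot of fold changes by tissue shows these 28 members.

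**Figure D2:**
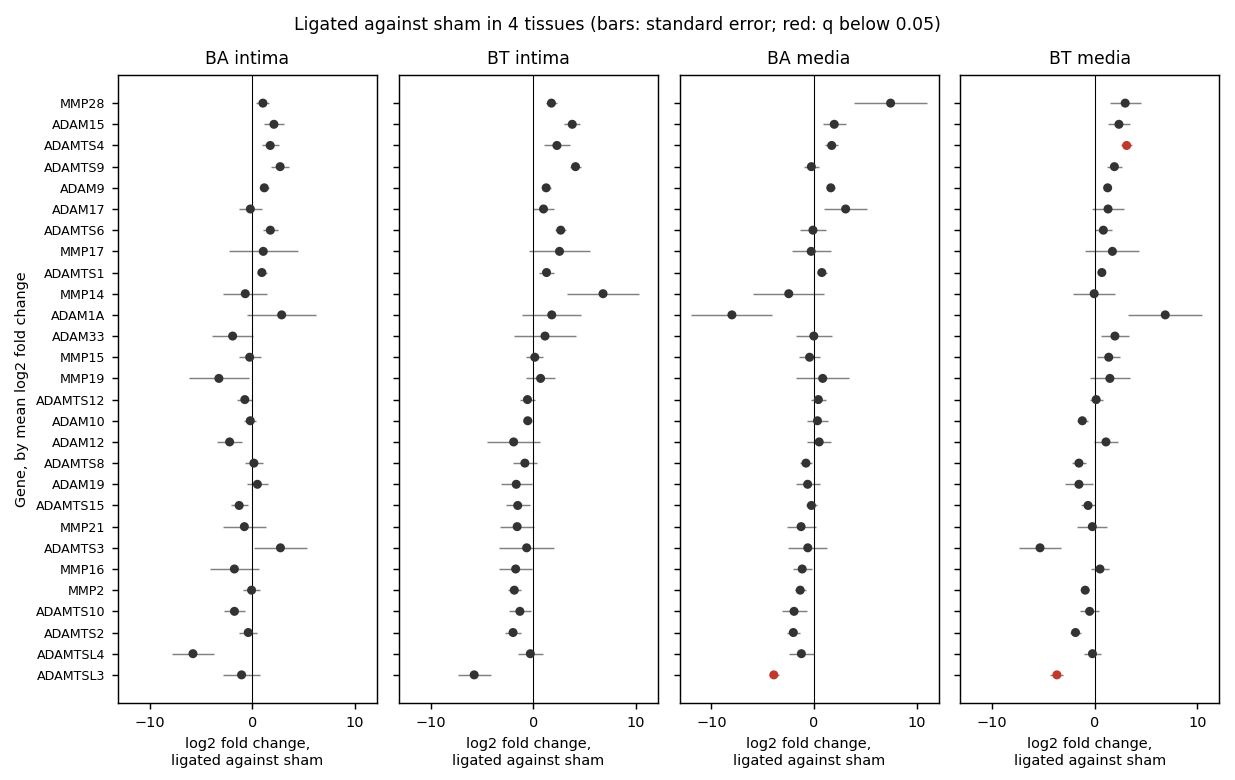
Log2 fold change of ligated against sham tissue for the 28 members tested in all 4 tissues, 1 panel per tissue, with the standard error of the fit as bars and q below 0.05 in red. ADAMTSL3 is red and low in both medial panels and ADAMTS4 is red and high in the BT media, while wide bars mark genes with few counts, whose fitted size depends on the prior count.

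Among the ADAMTS enzymes that cleave proteoglycans such as versican and aggrecan, ADAMTS4 was at 88.6 and 24.0 CPM in the sham BT media and at 602 and 351 CPM in the ligated BT media. The groups did not overlap, and ADAMTS4 was higher by 3.10 ± 0.54 on the log2 scale (SE, q = 0.0130). In the BA media it was at 55.1 and 16.9 CPM in sham and at 145 and 91.7 CPM in ligated tissue (log2 fold change 1.72 ± 0.61, q = 0.272). In the intima the ligated rabbits differed from each other, with 17.1 and 59.5 CPM at the BA and 6.83 and 164 CPM at the BT, beside 15.5 and 7.10 CPM and 15.0 and 18.9 CPM in sham tissue. Without rabbit 6 the q-value in the BT media was 0.0557, and in a fit over all 16 libraries it was 0.279.

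ADAMTS9, a versican-cleaving protease, had the smallest p-value of all members in both intimal comparisons. In the BT intima it was at 9.68 and 6.73 CPM in sham and at 140 and 147 CPM in ligated tissue (log2 fold change 4.12 ± 0.50, q = 0.247). In the BA intima it was at 15.4 and 4.41 CPM in sham and at 30.9 and 101 CPM in ligated tissue (2.71 ± 0.86, q = 0.724). In neither place did the flow groups overlap, although no gene reached the threshold in these comparisons, and the fit over all 16 libraries gave q = 0.0424 for the BT intima. In the media ADAMTS9 was at 24.7 and 5.48 CPM in sham and 58.6 and 52.5 CPM in ligated tissue at the BT (1.91 ± 0.70, q = 0.201), and overlapped at the BA, with 24.0 and 14.4 CPM against 17.9 and 13.9 CPM. ADAMTS9 and ADAMTS6 are on the study's own list of flow-responsive intimal genes, so their direction in the intima is not independent evidence. The study's edgeR test called these 2 genes in the BT intima at q below 0.05, unlike the fit here. Its filter used counts divided by transcript length, and the reason for the difference was not tested.

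ADAMTS6, a secreted protease of the same family, had its highest levels in the ligated BT intima, at 73.9 and 80.6 CPM beside 8.86 and 15.2 CPM in sham tissue (2.68 ± 0.54, q = 0.267). The BA intima showed the same order at lower levels, with 10.4 and 7.77 CPM in sham and 29.3 and 32.3 CPM in ligated tissue (1.75 ± 0.74, q = 0.807). In the media the flow groups overlapped at both locations, at 8.20 and 3.93 CPM against 8.44 and 2.88 CPM in BA tissue and 21.8 and 4.84 CPM against 13.4 and 33.0 CPM at the BT. ADAMTS6 overlaps CENPK in the RefSeq annotation, and its reads may not be told apart from those of that gene.

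ADAMTS1, which cleaves versican and aggrecan and held the most counts, was at 243 and 385 CPM in sham and 716 and 474 CPM in ligated BA intima, and at 499 and 479 CPM in sham and 1019 and 543 CPM in ligated BT media. In these tissues the groups did not overlap, but the log2 fold changes of 0.93 ± 0.48 (q = 0.860) and 0.68 ± 0.34 (q = 0.359) did not pass. In the BT intima the groups overlapped, at 365 and 1088 CPM against 2586 and 969 CPM, as they did in the BA media, at 261 and 134 CPM against 457 and 206 CPM. ADAMTS15, another proteoglycanase, ranged from 1.73 CPM in the ligated BT intima of rabbit 5 to 168 CPM in the sham BT media of rabbit 4. Its flow groups overlapped in 3 tissues and were apart only in the BA intima, at 41.1 and 23.1 CPM in sham and 5.64 and 21.1 CPM in ligated tissue (-1.29 ± 0.84, q = 0.863). ADAMTS8, the proteoglycanase next to ADAMTS15 in the genome, was at 75.8 and 57.1 CPM in sham and 39.0 and 6.89 CPM in ligated BT media (-1.55 ± 0.70, q = 0.306).

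Among the procollagen N-proteinases, which remove the amino-terminal propeptides of fibrillar collagens, ADAMTS2 was the member that was lower in ligated tissue in every tissue. In the media it was at 39.8 and 44.7 CPM in sham and 10.6 and 9.96 CPM in ligated tissue at the BA (-2.02 ± 0.61, q = 0.205), and at 61.9 and 92.1 CPM in sham and 24.0 and 17.6 CPM in ligated tissue at the BT (-1.89 ± 0.51, q = 0.0827). In the intima it was at 17.8 and 37.9 CPM against 5.01 and 9.30 CPM at the BT (-1.96 ± 0.81, q = 0.428) and at 13.8 and 15.5 CPM against 8.52 and 13.7 CPM at the BA. No comparison passed the threshold, and at the BA intima the gap between the groups was small beside their spread. ADAMTS2 overlaps ZNF354C in the RefSeq annotation, and its reads may not be told apart from those of that gene. ADAMTS3, which acts on procollagens and on the VEGFC precursor, was at 11.04 and 2.74 CPM in the sham BT media. In the ligated BT media it was at 0 and 0.234 CPM, a group mean 10.7-fold lower with the ligated group set to 3 counts. This is not a lower limit, because rabbit 6 held 2 counts there. The q-value of ADAMTS3 in the BT media was 0.230, and its groups overlapped in the other 3 tissues.

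The largest difference to pass among the members was that of ADAMTSL3, a matrix protein that resembles ADAMTS enzymes but has no protease domain. In the BA media it was at 153 and 128 CPM in sham and at 7.91 and 10.2 CPM in ligated tissue, and in the BT media at 57.8 and 63.2 CPM in sham and at 5.92 and 3.51 CPM in ligated tissue. The groups were far apart at both locations, with log2 fold changes of -3.92 ± 0.48 (q = 0.0179) at the BA and -3.70 ± 0.64 (q = 0.0128) at the BT. In the BT intima it was at 52.6 and 23.3 CPM against 0 and 1.40 CPM (-5.75 ± 1.62, q = 0.303), whereas in the BA intima the groups overlapped, at 46.2 and 1.5 CPM against 22.9 and 0 CPM. With any of rabbits 3, 4, 5 or 6 left out, the BA media q-value lay between 0.174 and 0.354. At the BT the q-value was 0.184 without rabbit 6, and the fit over all 16 libraries gave 0.373 at the BA and 0.399 at the BT.

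Fibroblast and leptomeningeal markers moved with these genes in part. The summed level of LUM, DCN, OMD, PDGFRA, COL1A1 and SLC22A8, 6 of the 7 listed markers, was 5174 to 8870 CPM in sham and 1737 to 2235 CPM in ligated BA media, with none of the 6 at 0. In the BT media the sums, which were mostly DCN (decorin), overlapped at 2518 to 2765 CPM in sham and 1594 to 2989 CPM in ligated tissue. Of the 5 markers tested there, 4 had a negative log2 fold change (median of the 5 -0.71), none with q below 0.05, and COL1A1 was lower without overlap, at 29.05 and 20.3 CPM in sham and 9.66 and 12.04 CPM in ligated tissue. In the BT intima the sums were 1263 to 3448 CPM in sham and 16.0 to 70.2 CPM in ligated tissue, with SLC22A8 at 0 in the latter, and in the BA intima they overlapped. Of the 6 markers tested in the BA media, 5 had a negative log2 fold change and DCN alone passed (-1.71 ± 0.30, q = 0.0487). The part of these cells in the differences of ADAMTSL3, ADAMTS2 and MMP2 was not tested.

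**Figure D3:**
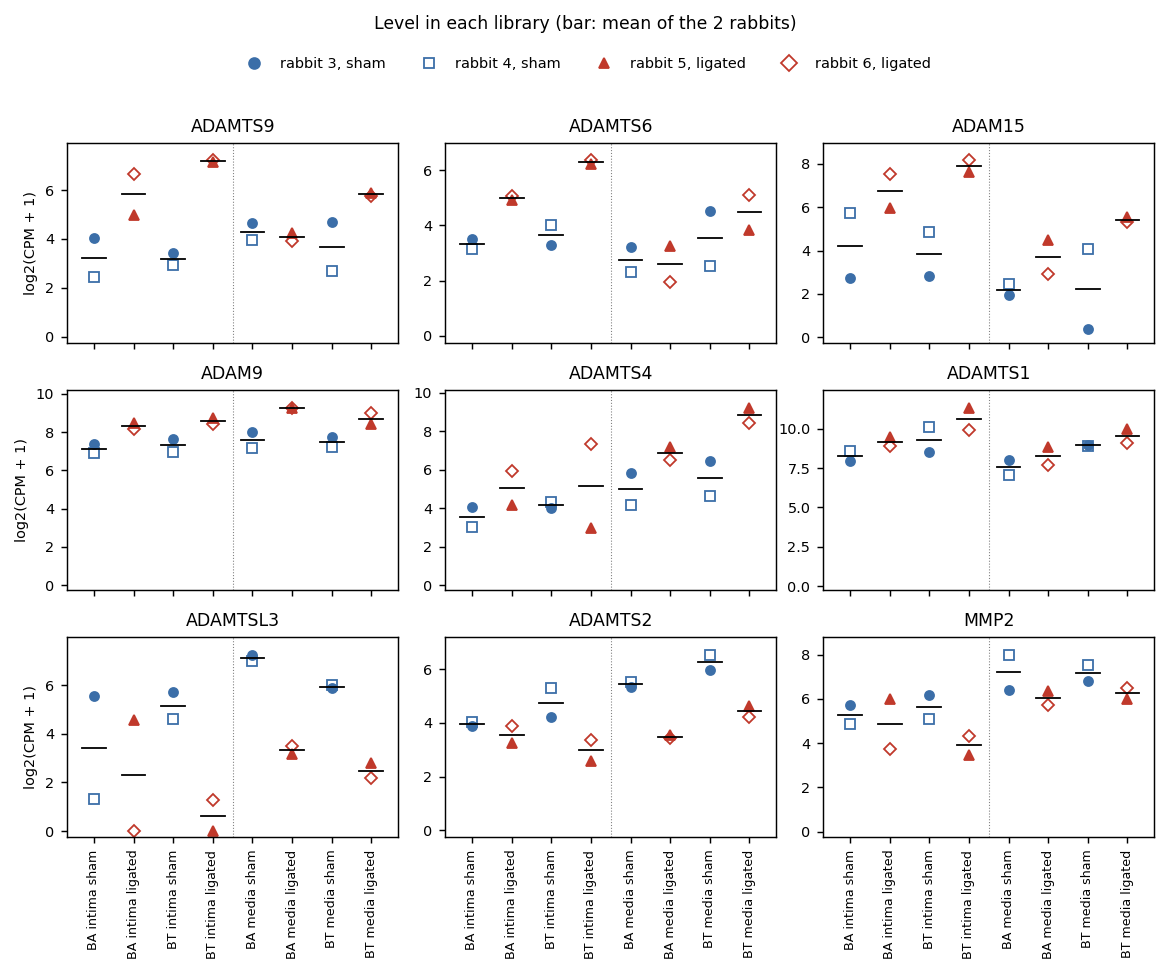
Level of 9 members in each of the 16 libraries, as log2(CPM + 1), with 1 panel per gene, a symbol per rabbit and a bar at the mean of the log2 values of the 2 rabbits of a group. ADAM9 and ADAM15 lie higher and ADAMTS2 lower in ligated tissue in all 4 tissues, ADAMTSL3 is low in ligated media, and the 2 ligated rabbits of ADAMTS4 lie apart in the BT intima.

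Among the membrane ADAMs that shed growth factors, cytokines and receptors, ADAM9 was higher in all 8 ligated libraries than in any of the 8 sham libraries. Across the 4 tissues, sham levels ran from 117 to 254 CPM and ligated levels from 282 to 619 CPM, a separation that 1.44% of the 7930 genes tested in all 4 tissues shared in this direction. In the BA media it was at 254 and 144 CPM in sham and 601 and 619 CPM in ligated tissue (1.63 ± 0.37, q = 0.0917), and in the BT media at 211 and 147 CPM against 338 and 506 CPM (1.25 ± 0.35, q = 0.0906). In the intima it was at 168 and 117 CPM against 356 and 282 CPM at the BA (1.16 ± 0.46, q = 0.805) and at 200 and 124 CPM against 429 and 348 CPM at the BT (1.26 ± 0.43, q = 0.351). The fitted differences thus lay between 1.16 and 1.63 on the log2 scale, and none of them passed the threshold.

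ADAM15, a sheddase that also carries an integrin-binding sequence, was at 6.16 and 28.3 CPM in sham and at 198 and 282 CPM in ligated BT intima (3.81 ± 0.80, q = 0.267). In the BA intima the sham rabbits were themselves far apart, at 5.64 and 51.6 CPM beside 62.1 and 183 CPM in ligated tissue (2.10 ± 0.95, q = 0.837). Medial levels were lower, at 2.83 and 4.42 CPM against 21.6 and 6.55 CPM at the BA and 0.290 and 15.8 CPM against 45.5 and 38.6 CPM at the BT (2.35 ± 1.05, q = 0.298). The flow groups of ADAM15 were apart in each tissue, with a wide spread between the rabbits of a group. Endothelial markers lay partly higher in the ligated BT intima, where TEK was at 80.1 and 102 CPM in sham and 347 and 277 CPM in ligated tissue (1.78 ± 0.41, q = 0.267), CDH5 at 12.6 and 17.4 against 82.6 and 54.2 CPM (2.19 ± 0.54, q = 0.277) and PECAM1 at 187 and 498 against 812 and 641 CPM, while VWF and KDR had negative fold changes. The sum of the 5 markers was 746 to 3196 CPM in sham and 1482 to 1645 CPM in ligated BT intima. In the BA media it was 35.8 to 233 CPM against 56.9 to 519.5 CPM, and in the BT media 36.6 to 797 CPM against 203 to 524 CPM. Fold changes were positive for 5 of the 5 markers in the BA media and 4 of the 5 in the BT media, none with q below 0.05. The part of these markers in the values of ADAM15 and MMP28 was not tested.

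ADAM10, which sheds Notch receptors and many other proteins, was lower without overlap in ligated tissue at the BT alone, with 97.1 and 133 CPM against 96.0 and 63.1 CPM in the intima and 42.7 and 47.9 CPM against 21.8 and 16.9 CPM in the media (-1.22 ± 0.56, q = 0.315). At the BA its groups overlapped, and the sham media of rabbit 4 held 3.27 CPM beside 59.6 CPM in rabbit 3. ADAM12, a sheddase of mesenchymal cells, was at 17.2 and 10.1 CPM in sham and 0.852 and 5.13 CPM in ligated BA intima (-2.22 ± 1.25, q = 0.860). In the other tissues its replicates ranged from 0 to 48.8 CPM and its groups overlapped. ADAM17, the TNF sheddase, is named here for its known role and outside the naming rule: it was at 0.161 to 20.2 CPM, and its groups overlapped in every tissue but the BA media.

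Of the gelatinases, MMP2 held the most counts of any MMP and was lower in ligated tissue in 3 tissues without overlap. It was at 71.0 and 33.7 CPM against 10.0 and 19.4 CPM in the BT intima (-1.84 ± 0.65, q = 0.371), at 84.9 and 256 CPM against 80.2 and 51.4 CPM in the BA media (-1.35 ± 0.55, q = 0.337) and at 110 and 184 CPM against 63.3 and 89.3 CPM in the BT media (-0.94 ± 0.41, q = 0.279). In the BA intima its groups overlapped, at 52.1 and 28.0 CPM against 63.4 and 12.2 CPM. MMP9, the other gelatinase, had 350 of its 405 counts in the sham BA media of rabbit 4, so its comparison there rested on that library.

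MMP28, a secreted MMP also known as epilysin, lay higher in ligated tissue in 3 tissues without overlap. It was at 16.0 and 32.7 CPM against 48.1 and 51.0 CPM in the BA intima (1.03 ± 0.63, q = 0.863) and at 11.3 and 17.6 CPM against 39.9 and 59.1 CPM in the BT intima (1.78 ± 0.57, q = 0.342). In the media it was nearly absent, at 0 and 0 CPM against 7.91 and 0 CPM at the BA and 1.16 and 0.968 CPM against 3.12 and 13.4 CPM at the BT. MMP28 overlaps C17H17orf50 in the RefSeq annotation.

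Most other MMPs were sparse. MMP12, a macrophage elastase, had all of its 106 counts in the ligated BT intima of rabbit 5, and the stromelysin MMP3 had all of its 102 counts in the ligated BT media of rabbit 6. Each was absent from the other rabbit of its group, so these values describe 1 library each. MMP14, the membrane-anchored activator of proMMP2, did not exceed 4.91 CPM in any library. These 3 genes, like ADAM17, were chosen after their values were seen. MMP9 came under the naming rule through its p-value in the flow comparison of the BA media. Of the symbols matched by name, MMP7, MMP8, MMP13, MMP20 and MMP26 were among the 10 without a count, and a count of 0 allows a level of up to 0.169 to 1.58 CPM depending on the library.

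Further members with the smallest p-values in the BA intima were low. ADAMTSL4, a microfibril-associated protein, had 108 and 162 counts in sham and 0 and 2 counts in ligated BA intima (q = 0.754). With both ligated libraries set to 3 counts, its group mean in CPM was 21.8-fold lower in ligated tissue. This is not a lower limit, because 2 counts were seen there. ADAMTSL4 overlaps MCL1 in the RefSeq annotation, and in the other 3 tissues its flow groups overlapped. ADAMTS10, which binds fibrillin, was at 9.24 and 45.2 CPM against 3.30 and 13.0 CPM in the BA intima, where the groups overlapped (-1.75 ± 1.04, q = 0.863).

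The other 30 members did not exceed 47.6 CPM in any library, and 12 of them were too low to be tested in any flow comparison. Among the 9 tested in all 4 tissues, ADAMTS12, a protease of cartilage oligomeric matrix protein, was the steadiest, at 9.85 to 29.9 CPM (median 18.8). MMP15 and MMP16, which are membrane-anchored, ranged from 2.03 to 19.8 CPM and from 0 to 47.6 CPM, and ADAM19 and ADAM33 from 1.56 to 17.4 CPM and from 0 to 11.53 CPM. None of these had q below 0.05 in any comparison. ADAMTS5, the other main aggrecanase, had 243 counts in all and reached 9.81 CPM in the sham BT intima of rabbit 4. MMP10 had 113 counts, most of them in the ligated BT intima. There it was at 1.21 and 6.42 CPM beside 0 and 0 CPM in sham tissue, a group mean at least 11.9-fold higher. Of the ADAMs without a working protease site, ADAM22, ADAM23, ADAM7 and ADAM18 had 100, 17, 15 and 10 counts. These genes were named after their values were seen.

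Intima was set against media within each rabbit and location, to find which members were enriched on the endothelial side of the wall and which in the muscle. MMP28 and ADAM10 were higher in the intima at the BT, where 2 of 35 members and 1.95% of all genes passed (1.19% upward). No member of 30 passed at the BA, where 0.466% of genes did, although 8 had an unadjusted p-value under 0.05 (12.3% of genes) and DESeq2 passed 6. At the BT the log2 ratio of intima to media was 3.28 ± 0.58 for MMP28 (q = 0.0394) and 1.67 ± 0.30 for ADAM10 (q = 0.0397). Intimal levels of MMP28 at the BT were 11.3 to 59.1 CPM and medial levels 0.968 to 13.4 CPM, and every rabbit held more in its intima. Neither call was kept without rabbit 4, 5 or 6, when q was 0.111 to 0.177 for MMP28 and 0.111 to 0.194 for ADAM10, and with no rabbit block MMP28 had q = 0.0582.

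Over the 8 pairs of layers, MMP28 and ADAM15 were higher in the intima in 8 of 8, as were 5.64% of the genes tested in both locations. The mean log2 ratio of intima to media, with 0.5 CPM added, was 4.04 (SD 1.69) for MMP28 and 2.42 (SD 1.35) for ADAM15, and for ADAM10, higher in 7 of 8 pairs, it was 1.54 (SD 1.43). Lower in the intima in 8 of 8 pairs were ADAMTS4, MMP2, ADAMTS15 and ADAMTS8, 4 of 28 members beside 4.14% of genes, with mean ratios of -2.12 (SD 1.94), -1.76 (SD 1.06), -1.64 (SD 1.90) and -1.20 (SD 1.18). ADAMTS8 was named after its values were seen. In the fits, MMP2 had -2.00 ± 0.41 (q = 0.0556), ADAM15 2.24 ± 0.49 (q = 0.0645) and ADAMTS2 -1.56 ± 0.39 (q = 0.0996) at the BT, just outside the threshold. ADAM9 was lower in the intima in 7 of 8 pairs, by little (mean -0.41, SD 0.45).

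**Figure D4:**
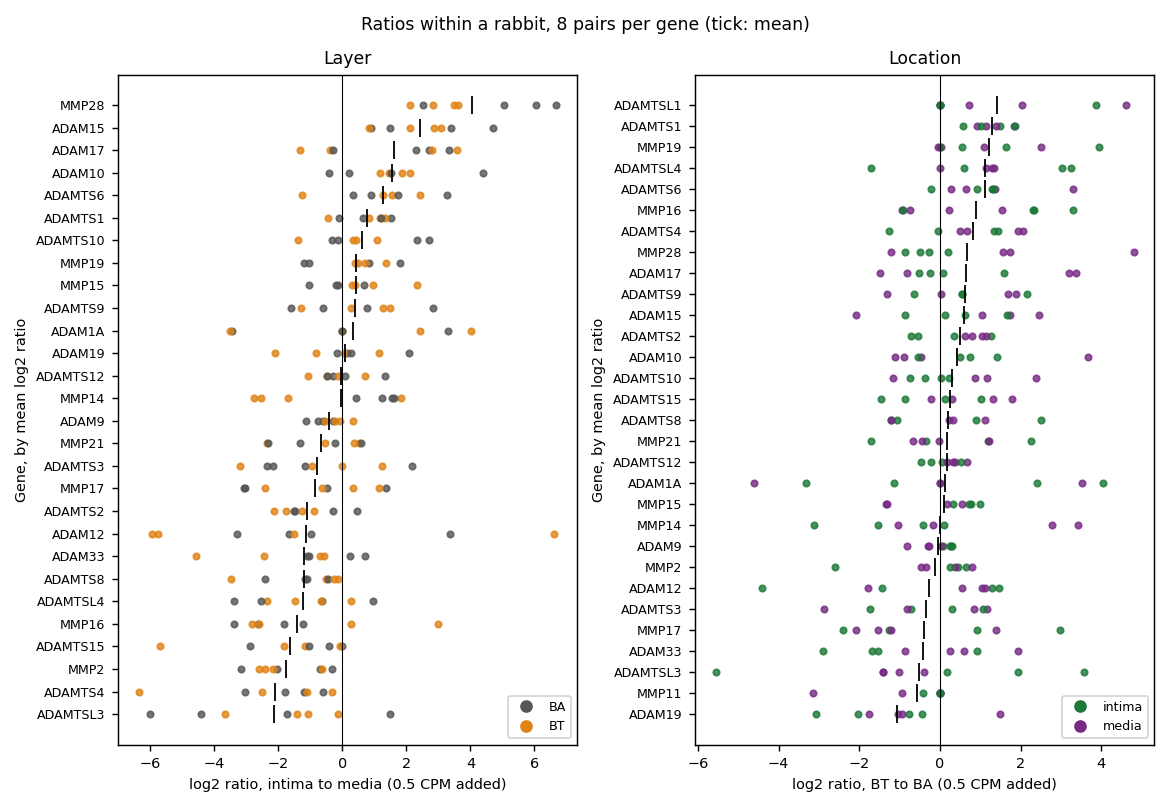
Log2 ratios within a rabbit with 0.5 CPM added, 8 pairs per gene, of intima to media (left, 28 members tested at both locations) and of BT to BA (right, 30 members tested in both layers), with a tick at each mean. MMP28 and ADAM15 lie right of 0 and ADAMTS4, MMP2, ADAMTS15 and ADAMTS8 left of 0 in all 8 layer pairs, and ADAMTS1 lies right of 0 in all 8 location pairs.

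The bifurcation was set against the straight artery because shear stress on the wall is higher there. No member passed in the intima (34 tested, 0.0% of genes passed) or in the media (33 tested, 0.0%). An unadjusted p-value under 0.05 was reached by 2 of 34 members in the intima (2.97% of genes) and by 8 of 33 in the media (4.02%), and DESeq2 passed none in the intima and ADAMTS1 and MMP9 in the media. All medial counts of MMP9 lay in 1 library, the sham BA media of rabbit 4, so its value rested on that library. ADAMTS1 was higher at the BT in 8 of 8 pairs of the same rabbit and layer, 1 of 30 members beside 0.603% of genes, with a mean log2 ratio of 1.29 (SD 0.44), whereas 0 of 30 members and 0.521% of genes were lower there in every pair. Its fitted log2 ratio was 1.27 ± 0.31 in the media (q = 0.635) and 1.40 ± 0.43 in the intima (q = 1.00). With rabbit as a block the media value was 1.32 (q = 0.105). Of the 11 ADAMTS genes tested in the media, 10 had a positive ratio (median 1.00), beside 49.2% of all genes, and these genes share the same 8 libraries.

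Whether the response to ligation differed between BT and BA, or between layers, was tested with interaction terms. No member passed in any of these 4 tests, where 0.0% of all genes passed in the intima by location, 0.0213% in the media by location, 0.0% by layer at the BA and 0.0% by layer at the BT. Unadjusted p-values under 0.05 were found for 2 members (3.12% of genes), 1 (6.45%), 2 (2.44%) and 1 (4.8%) in that order, and among these ADAMTS9 appeared in both tests by layer. Its response in the intima exceeded that in the media by 2.97 ± 1.05 on the log2 scale at the BA (q = 1.00) and by 1.93 ± 0.75 at the BT (q = 0.987). The response of ADAMTSL3 was not shown to differ between the layers of the BT (-2.49 ± 1.74, q = 1.00), and nor were the medial values of ADAMTS4 at the BT and BA (1.37 ± 0.82, q = 0.826).

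The inhibitors, activators and substrates of these enzymes were read from lists, and TIMP2 was not analysed here. Of 10 listed inhibitors, 9 had an entry in the matrix, and of the 6 tested in the BT media 1 rose and 1 fell. TIMP1, which inhibits many MMPs and ADAM10, was at 1005 and 932 CPM in sham and 14650 and 11620 CPM in ligated BT media and rose by 3.77 ± 0.31 on the log2 scale (q = 0.000181). In every other tissue its ligated libraries also lay above its sham libraries, with log2 fold changes of 3.75 ± 0.53 (BA intima, q = 0.192), 4.57 ± 0.67 (BT intima, q = 0.247) and 2.11 ± 0.39 (BA media, q = 0.0550). In the intima of both locations the study's own test called TIMP1 at q below 0.05. RECK, a membrane-anchored MMP inhibitor, fell in the BT media from 41.25 and 45.97 CPM to 4.05 and 5.73 CPM (-3.13 ± 0.68, q = 0.0356). TIMP3, the matrix-bound inhibitor of ADAM17 and ADAMTS enzymes, was at 857 to 2764 CPM and TIMP4 at 0 to 17.4 CPM, and neither passed in any flow comparison.

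Of the 15 listed activators and partners, 13 had an entry, and in the BT media 3 of the 9 tested rose and none fell, where 1.14% of all genes rose. PLAU, PLAT and PLAUR, the plasminogen activators and the urokinase receptor, which together generate the proMMP activator plasmin, rose by 2.30 ± 0.41 (q = 0.0138), 3.03 ± 0.47 (q = 0.00680) and 5.63 ± 0.84 (q = 0.00562). In the other 3 tissues no activator passed, and in the intima no gene did. Of the 11 tested in the BT intima, 9 had a positive and 2 a negative log2 fold change. PLAT was at 29.6 and 89.3 CPM in sham and 378 and 463 CPM in ligated BT intima (2.82 ± 0.61, q = 0.267). There the study's own test called PLAT at q below 0.05. Of 14 matrix substrates, 12 had an entry and 10 were tested in each tissue. COL3A1, a fibrillar collagen chain whose propeptide ADAMTS2 removes, fell in the media of the BA (-1.68 ± 0.26, q = 0.0362) and of the BT (-1.45 ± 0.29, q = 0.0253) and was the only substrate to pass in a flow comparison. Intima against media, COL3A1 (-2.11 ± 0.26, q = 0.0201) and FBN1 (-1.13 ± 0.22, q = 0.0460) were lower in the BT intima. None of the ADAM-shed ligands and receptors, 11 of 12 with an entry, passed in a flow comparison. Of the 8 tested in the BT intima, 5 had a positive and 3 a negative log2 fold change. HBEGF was at 5.62 and 4.39 CPM in sham and 254.5 and 32.9 CPM in ligated BT intima (4.85 ± 1.05, q = 0.267). The study's own test called HBEGF there at q below 0.05, whereas no gene passed in the intima here.

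S100A9 was singled out among the listed leukocyte markers after its values were seen. This gene, which neutrophils and monocytes express strongly, was higher in ligated than in sham tissue in all 4 tissues without overlap. In the intima it was at 26.3 and 315 CPM in sham and 2574 and 1799 CPM in ligated tissue of the BA (log2 fold change 3.70 ± 0.98, q = 0.624), and at 17.1 and 133 CPM against 872 and 723 CPM in that of the BT (3.42 ± 0.94, q = 0.293). In the media it was at 0 and 12.3 CPM against 703 and 32.0 CPM for the BA (5.99 ± 1.84, q = 0.208), and at 0 and 2.26 CPM against 381 and 68.7 CPM for the BT, where it passed (7.38 ± 1.01, q = 0.00389). PTPRC, which all leukocytes carry, was at 0 and 0 CPM in ligated and 16.9 and 0.224 CPM in sham BA intima, and it did not exceed 20.2 CPM in any library. S100A8, whose protein pairs with that of S100A9, was at 1.58 and 146 CPM in sham and 28.5 and 0.513 CPM in ligated BA intima (-2.30 ± 1.76, q = 0.884) and at 11.9 and 17.3 against 5.27 and 0.906 CPM in BT intima (-2.22 ± 1.23, q = 0.502), whereas its medial fold changes were positive, at 2.54 ± 1.76 (BA, q = 0.555) and 2.84 ± 1.16 (BT, q = 0.252). The 7 macrophage markers summed to 130 to 753 CPM in sham and 55.3 to 121 CPM in ligated BT intima. C1QA, C1QB and CSF1R were at 0 in the latter, where the sums were almost wholly CD14, at 121.0 and 54.68 CPM. Of the 6 markers tested in the BT intima, CD14 alone had a positive log2 fold change and 5 a negative one (median -9.29). In BA intima the sums were 77.1 to 346 CPM against 104 to 160 CPM, with CD14 at 70.61 and 101.5 CPM in ligated tissue. Of the 5 tested there, CD14 alone had a positive log2 fold change and 4 a negative one (median -1.71). In the media the 7 markers summed to 170 to 246 CPM in sham and 38.5 to 139 CPM in ligated tissue of the BA. For the BT the sums were 54.9 to 61.9 CPM against 78.9 to 125 CPM, and no macrophage marker passed in a flow comparison. Brain markers summed to 3.43 to 32.2 CPM, with AQP4 at 0 in every group. The part of these cells in the members' differences and in that of TIMP1 was not tested.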

How the data were processed

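RNA was amplified with SMART-Seq v4 kits and sequenced as single reads from Nextera libraries, per the labels and the study's methods. The authors aligned reads to the rabbit genome OryCun2.0 with STAR, kept unique alignments and counted them per gene with featureCounts 1.6.2 and Ensembl annotation. What the authors deposited was a table of raw counts by gene symbol. Counting used a reverse-strand setting, although these kits do not mark strand, so that reads of overlapping genes cannot be told apart. With this setting the counts may hold only part of the reads, and the totals, the zero counts and the level that 3 counts stand for are those of the counted reads. The entry without a symbol (13.8 to 18.7% of counts) was left out.

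Counts were fitted with edgeR 4.0.16 (quasi-likelihood F test, TMM) in R 4.3.3 on all genes with a mean above 1 CPM in at least 1 compared group. Standard errors were derived from the log2 fold change and F, and p-values were adjusted by Benjamini-Hochberg over all genes tested. Flow was fitted within each tissue, layer with rabbit as a block, location with flow as a covariate, and interactions over 8 libraries. Equal replicate numbers name the same rabbit, per the labels, so layers and locations are paired and flow groups are not. A flow comparison rests on 2 animals per group. Zero counts were taken to allow 3 counts at most (95%, counting error only). Nonzero counts of 3 or fewer were also set to 3, which sets no limit for them. DESeq2 1.42.0 and other settings were alternatives. The scripts were tested on simulated data.

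Named members were those with q below 0.05, the 3 smallest p-values in each direction of each flow comparison, the 10 with most counts, and ADAMTS9 and ADAMTS6, while members without a count in 12 or more libraries were given by count. The members and lists were chosen with earlier results of these data known. Overlapping genes and neighbours came from RefSeq (assembly mOryCun1.1, not the build of the counts, so no coordinates are given), where 52 members matched and 27 overlapped another gene. Tables were made with Python 3.11.15 and pandas 2.3.3. A marker on the list of other leukocytes, and the sum of that list, are not reported here.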

Additional observations from a re-analysis of the deposited data

How the results depend on the processing

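Members with an unadjusted p-value under 0.05 in a comparison, or among the 3 smallest in a direction for flow, kept their direction there in every alternative run. Other members could change sign. With library size alone, the members with a positive value went from 15 to 16 for layer at the BT and from 21 to 23 for location in the media. The number of members past q = 0.05 depended most on the low-count filter and the tool. With no filter it was 2 and 4 for flow in the intima of BA and BT, 4 and 5 in their media, 1 at the BA and 4 at the BT for layer, and 3 for location in the media. With DESeq2 it was 4 (BT intima), 2 (BA media) and 4 (BT media) for flow, 6 at the BA and 7 at the BT for layer, and 2 for location in the media. The fit over 16 libraries gave 1 (ADAMTS9) in the intima of the BT and 0 and 0 in the media of BA and BT. The cause was not tested. Leaving out each rabbit gave 0 to 1 in the BA intima (ADAMTS9 without rabbit 3, ADAM15 without rabbit 4), 0 to 2 in the BT intima (ADAM15 and ADAMTS9 without rabbit 4), 0 to 0 for BA media and 0 to 5 for BT media (5 without rabbit 3, 4 without rabbit 4 and 0 without rabbit 6). It gave 0 to 1 for layer at the BA (MMP28 without rabbit 5), 0 to 3 for layer at the BT (0 without rabbit 4, 5 or 6), and 0 to 1 for location by flow in the media (ADAM10 without rabbit 3). The flow fits among these leave 1 library in a group, which is assumed to vary like the other group. With no replicate block, layer gave 0 at the BA and 1 at the BT (ADAM10), and with the replicate block, location gave 0 in the intima and 0 in the media. The block changed no other count of members. Flow groups are different rabbits and could not be paired. Scaling by DESeq2's size factors (RLE) or by library size alone kept every count of members within 1.5 times. Library size alone moved the median log2 value of all genes from 0.00 to 0.24 for layer at the BA, from 0.07 to 0.31 for layer at the BT, from -0.14 to -0.29 for flow in BA media, and from 0.03 to 0.17 for flow in BT media, and in the interactions from 0.15 to 0.44 (location by flow, media), -0.13 to 0.09 (layer by flow, BA) and -0.27 to -0.42 (layer by flow, BT). Depth limits the sparse members, since 3 counts correspond to as much as 1.58 CPM in the shallowest library.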
